A study of Mus musculus with 22 samples.

Results

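Tnf, Lta and Ltb, the genes of tumor necrosis factor (TNF) and of the α and β chains of lymphotoxin, and Tnfrsf1a and Tnfrsf1b, the genes of TNF receptors 1 and 2, were followed in bulk RNA-seq of a murine leukemia. The members were chosen by name. They are 5 of the 17023 genes to which the transcripts of the deposited table were assigned, and they hold 9 of its 62492 transcripts. All 22 samples came from TCL1-355 TKO, a leukemic B-cell line derived from the Eμ-TCL1 mouse model of chronic lymphocytic leukemia, whose engineered lesions include loss of CDKN2A and CDKN2B in both genotypes. In NFKBIE-ko cells the NFKBIE gene, which encodes the NF-κB inhibitor IκBε, had been disrupted with Cas9 ribonucleoprotein, and NFKBIE-wt cells were the unedited counterpart, titled MOCK. Each genotype was propagated for 21 days in its own C57BL/6 mouse and then injected into the peritoneum of 5 recipient mice, from which cells of the spleen (4 samples per genotype) and of the peritoneal cavity (PC, 4 samples per genotype) were recovered after 10 days. The third compartment was in vitro culture (3 samples per genotype), for which cells from spleens of separate mice were kept for 2 weeks. Recipients of edited leukemia cells were 2 to 3 months old by the methods. The labels do not give the sex of the mice, nor do they say whether a spleen and a PC sample came from the same mouse.

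TNF, made by activated macrophages and lymphocytes, binds TNF receptor 1, which is found on most cell types, and TNF receptor 2, which is largely kept to hematopoietic and endothelial cells. Lymphotoxin α is secreted as a homotrimer that binds the same receptors, while with lymphotoxin β, which anchors it in the membrane, it forms a ligand of the lymphotoxin β receptor that shapes lymphoid tissue. Both receptors of TNF lead to NF-κB, and Tnf, Lta and Ltb are themselves well-known targets of NF-κB, the factor that IκBε holds back.

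The 3 ligand genes lie side by side on chromosome 17 of GRCm39, inside the major histocompatibility complex. Ltb is at chr17:35413382-35415296 on the forward strand, Tnf at chr17:35418357-35420983 and Lta at chr17:35422141-35424327, both on the reverse strand. They span 10946 bases together, with 3060 bases between Ltb and Tnf and 1157 between Tnf and Lta. Tnfrsf1a is at chr6:125325566-125339632 (forward strand) and Tnfrsf1b at chr4:144938938-144973477 (reverse strand). The edited gene, Nfkbie, is also on chromosome 17, 10445.6 kb from the Tnf start. The 250 bases before the annotated start of each ligand gene are shown because these genes changed with the NFKBIE genotype. They are written 5′ to 3′ on the strand of the gene, with any TATAAA on either strand in capitals.
Tnf, chr17:35420984-35421233, reverse strand: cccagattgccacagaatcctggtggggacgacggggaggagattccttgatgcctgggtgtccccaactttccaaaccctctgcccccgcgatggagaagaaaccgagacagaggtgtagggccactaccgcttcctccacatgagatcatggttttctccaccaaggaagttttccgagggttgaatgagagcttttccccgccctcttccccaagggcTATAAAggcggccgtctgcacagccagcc
Lta, chr17:35424328-35424577, reverse strand: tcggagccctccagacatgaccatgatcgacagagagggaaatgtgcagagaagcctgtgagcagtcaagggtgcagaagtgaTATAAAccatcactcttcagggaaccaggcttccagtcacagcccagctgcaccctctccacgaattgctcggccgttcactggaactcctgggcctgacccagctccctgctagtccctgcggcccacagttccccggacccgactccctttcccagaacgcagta
Ltb, chr17:35413132-35413381, forward strand: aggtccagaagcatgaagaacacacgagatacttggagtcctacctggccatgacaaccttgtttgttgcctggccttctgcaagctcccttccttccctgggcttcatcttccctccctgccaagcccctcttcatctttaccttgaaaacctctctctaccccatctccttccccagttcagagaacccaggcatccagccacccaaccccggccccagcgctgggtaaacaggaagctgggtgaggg
The letters TATAAA began 29 bases before the start of Tnf and 167 bases before that of Lta, and the Ltb stretch did not hold them. Of 14645 promoters of the same length, 8.13% held them. A 10-letter search for the κB consensus, the motif that NF-κB dimers bind, on both strands of the 1000 bases before each start found 1 match each for Tnf and Tnfrsf1b and none for Lta, Ltb and Tnfrsf1a. The matches are shown in capitals within their surroundings, on the strand of the gene.
Tnf, chr17:35421426-35421555, reverse strand: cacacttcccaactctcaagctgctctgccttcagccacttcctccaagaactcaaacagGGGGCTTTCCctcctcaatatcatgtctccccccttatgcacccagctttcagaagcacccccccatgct
Tnfrsf1b, chr4:144974351-144974440, reverse strand: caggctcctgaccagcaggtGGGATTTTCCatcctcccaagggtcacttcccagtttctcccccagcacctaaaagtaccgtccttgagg
The match of Tnf began 512 bases and that of Tnfrsf1b 980 bases before the start. Of 14645 promoters searched in the same way, 21.29% held a match, so that 2 of 5 genes is a description of these letters only.

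The total estimated count lay between 24036763 and 26581304 per library. In 18 of the 22 libraries the profile over all genes correlated best with the mean of the other libraries of the same group. The spleen library labelled NFKBIE-wt replicate 4 correlated best with the NFKBIE-wt cultures (r = 0.985, against 0.943 with its own group), and the culture labelled NFKBIE-wt replicate 3 with the NFKBIE-wt spleens (0.981 against 0.931). The others were NFKBIE-wt in vitro replicates 1 and 2, closest to the NFKBIE-ko cultures. Results that rest on the first pair of libraries are therefore given with and without both, which leaves 3 NFKBIE-wt spleens and 2 NFKBIE-wt cultures. Nfkbie itself, the edited gene, was lower in all 4 NFKBIE-ko PC samples than in any NFKBIE-wt PC sample, as were 19.4% of genes. Its log2 fold change there was -0.56 (edgeR adjusted p = 0.00377). It was not called in the spleen (0.19, edgeR adjusted p = 0.73) or in vitro (-0.93, edgeR adjusted p = 0.517). An edit of a few bases need not lower the count of a transcript, so these values do not test the labels.

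**Figure D1:**
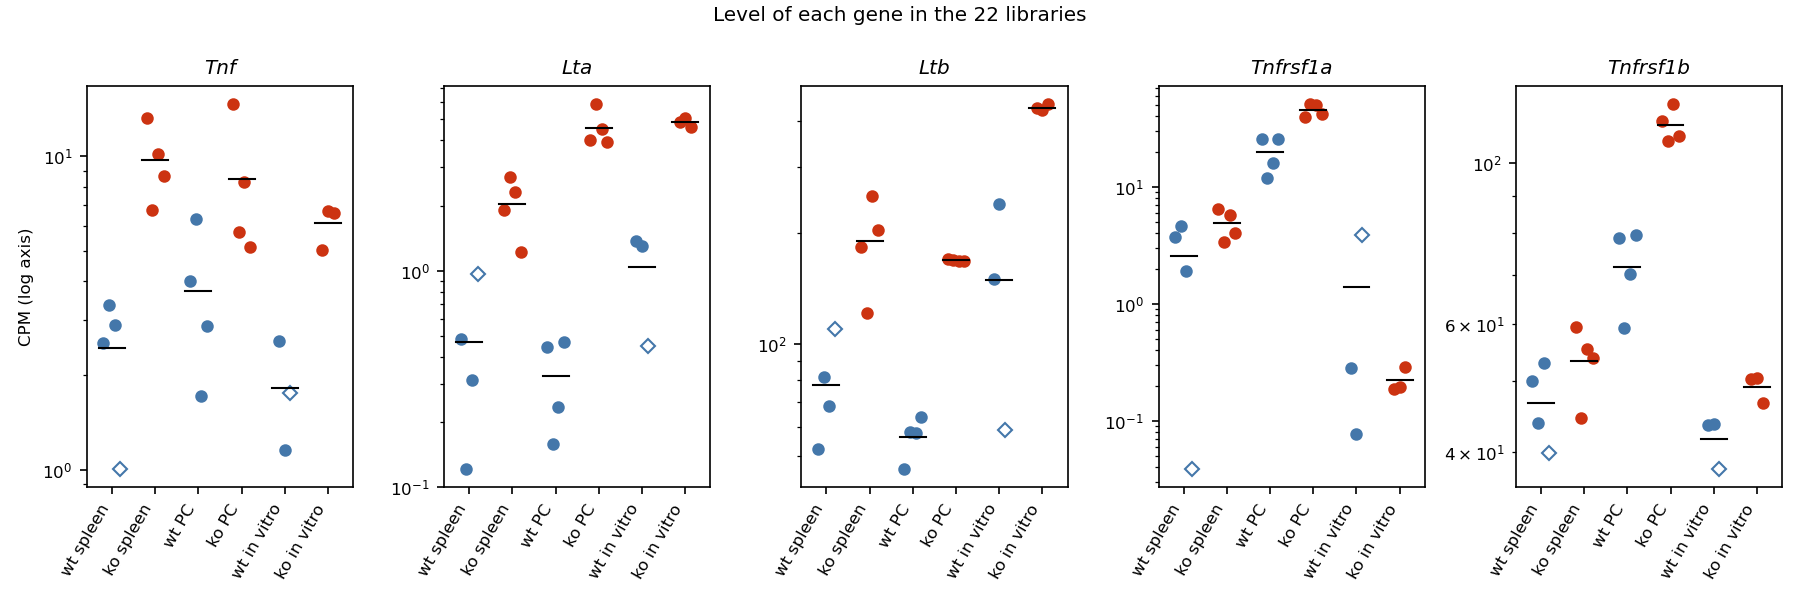
Level of each gene in CPM (counts scaled to library size, log axis) in the 22 libraries by genotype and compartment, with blue for NFKBIE-wt, red for NFKBIE-ko and a black line at the group mean. Open diamonds are the spleen library labelled NFKBIE-wt replicate 4 and the culture labelled NFKBIE-wt replicate 3. All NFKBIE-ko libraries lie above all NFKBIE-wt libraries of their compartment for Lta and Ltb, and Tnfrsf1a spans from 0.0387 to 50.9 CPM.

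Levels of the members were compared with each other per length, as TPM, and otherwise as CPM, counts scaled to the size of the library. Ltb was the most abundant of the 5 in each of the 6 groups, with mean levels from 79.0 ± 11.5 TPM (SD, n = 4) in NFKBIE-wt PC to 677 ± 21.6 TPM (SD, n = 3) in NFKBIE-ko cultures. Tnfrsf1b was second in each group, from 16.0 ± 1.39 TPM (SD, n = 3) in NFKBIE-wt cultures to 39.4 ± 2.39 TPM (SD, n = 4) in NFKBIE-ko PC, where it was close to Tnfrsf1a at 36.2 ± 4.67 TPM (SD, n = 4). Tnf and Lta were rare transcripts. The mean level of Tnf ran from 2.12 ± 0.883 TPM (SD, n = 3) in NFKBIE-wt cultures to 10.6 ± 3.09 TPM (SD, n = 4) in NFKBIE-ko spleens. That of Lta ran from 0.391 ± 0.157 TPM (SD, n = 4) in NFKBIE-wt PC to 6.61 ± 0.232 TPM (SD, n = 3) in NFKBIE-ko cultures.

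The first question was whether the genes differ between the genotypes within a compartment. In the spleen Tnf and Ltb passed the test (adjusted p below 0.05) and were higher in NFKBIE-ko samples, against 2.3% of the 12221 genes tested that were called higher. In the PC Lta, Ltb, Tnfrsf1a and Tnfrsf1b were called higher, against 22.5% of 12642 genes. In vitro none of the 4 members tested was called, against 0.0341% of 11722 genes called higher by edgeR, and all 4 had an unadjusted p below 0.05, against 9.59% of genes. Without the spleen library labelled NFKBIE-wt replicate 4, all 3 ligand genes were called higher in the spleen, against 5.48% of 12471 genes. Without the culture labelled NFKBIE-wt replicate 3, none was called in vitro, against 0.059% of 11865 genes called higher, and all 4 again had an unadjusted p below 0.05, against 10% of genes. Over all genes tested, the median log2 fold change was -0.01 for spleens and for PC samples and -0.02 for cultures.

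**Figure D2:**
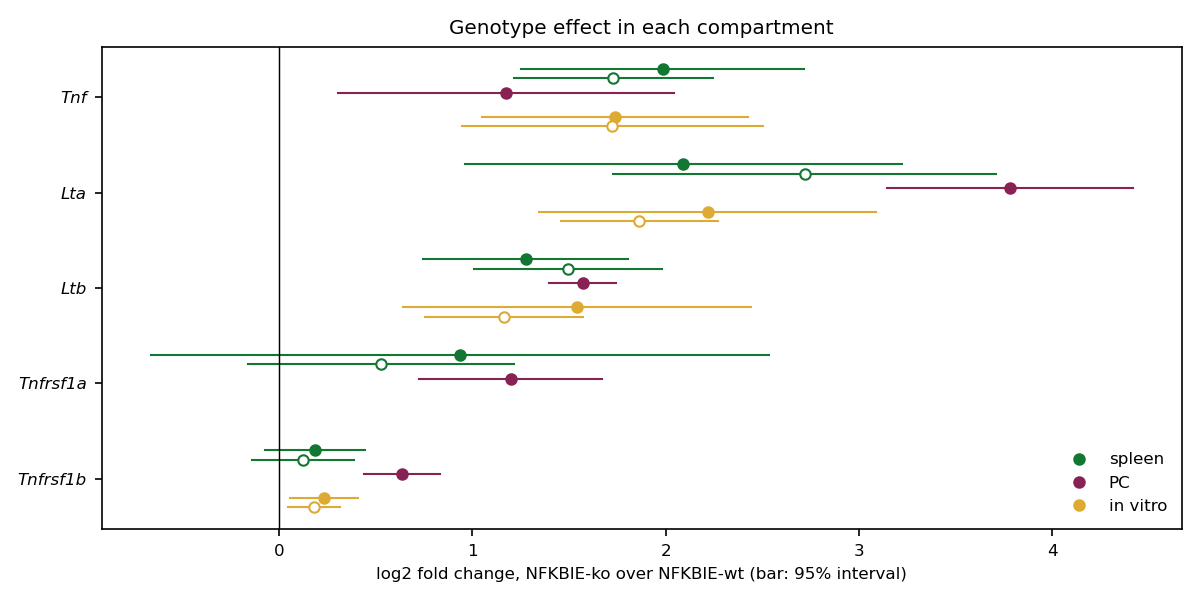
Log2 fold change of NFKBIE-ko over NFKBIE-wt (horizontal axis) for each gene and compartment, with 95% intervals from a normal approximation, which are too narrow for so few samples. Filled points use all libraries and open points leave out the spleen library labelled NFKBIE-wt replicate 4 or the culture labelled NFKBIE-wt replicate 3. The 3 ligand genes lie between 1.17 and 3.78 in all compartments, while Tnfrsf1b lies between 0.12 and 0.64.

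Tnf, the gene of TNF itself, was measured at 13.2, 6.73, 10.2 and 8.68 CPM in the NFKBIE-ko spleens, and at 2.53, 3.36, 2.89 and 1.01 CPM in the NFKBIE-wt spleens, the last being the library labelled replicate 4. Every NFKBIE-ko spleen was above every NFKBIE-wt spleen, which 8.09% of the genes tested also showed. The difference was 1.98 on the log2 scale (SE 0.37, edgeR adjusted p = 0.0205). It was 1.73 without the library labelled replicate 4 (edgeR adjusted p = 0.00423). The call was lost when any 1 of 5 other spleens was left out, namely NFKBIE-wt replicate 1 (edgeR adjusted p = 0.0621) or 3 (0.0606) or NFKBIE-ko replicate 1 (0.0778), 3 (0.0709) or 4 (0.0624).

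In the PC, Tnf levels of 14.7, 5.72, 8.28 and 5.14 CPM in NFKBIE-ko samples overlapped those of 4.00, 6.32, 1.72 and 2.87 CPM in NFKBIE-wt samples. One NFKBIE-ko sample stood above the other 3 and NFKBIE-wt replicate 2 above 2 of the NFKBIE-ko samples. The log2 fold change was 1.17 (SE 0.44, edgeR adjusted p = 0.0601). It was called without NFKBIE-wt PC replicate 2 (1.54, edgeR adjusted p = 0.0212) or without NFKBIE-ko PC replicate 4 (1.35, edgeR adjusted p = 0.0468). The cultures were at 5.03, 6.70 and 6.61 CPM in NFKBIE-ko and at 2.57, 1.15 and 1.76 CPM in NFKBIE-wt cells, the last being the library labelled replicate 3. These groups did not overlap, which 9.9% of genes also showed with NFKBIE-ko higher. The difference was 1.74 (SE 0.35, edgeR adjusted p = 0.412) and 1.72 without the library labelled replicate 3 (edgeR adjusted p = 0.29). Without NFKBIE-wt in vitro replicate 2 it was called (1.50, edgeR adjusted p = 0.0474).

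Lta, the gene of lymphotoxin α, showed its largest difference in the PC. It was measured at 4.03, 5.87, 4.50 and 3.92 CPM in NFKBIE-ko PC samples and at 0.445, 0.159, 0.234 and 0.471 CPM in NFKBIE-wt PC samples, which rest on 4 to 11 counts per library. The groups were far apart, with a log2 fold change of 3.78 (SE 0.32, edgeR adjusted p = 1.12e-05). That all NFKBIE-ko PC samples exceeded all NFKBIE-wt PC samples was also seen for 22.1% of genes. In the spleen the NFKBIE-ko samples had 1.91, 2.72, 2.30 and 1.22 CPM. The NFKBIE-wt spleens had 0.482, 0.121, 0.312 and 0.967 CPM, again with the library labelled replicate 4 last. They did not overlap the NFKBIE-ko spleens, which 8.09% of genes also showed. With all libraries the log2 fold change was 2.09 (SE 0.58) and was not called (edgeR adjusted p = 0.0711). The library labelled replicate 4 was the highest of the NFKBIE-wt spleens, and without it the fold change was 2.72 and was called (edgeR adjusted p = 0.0102). In vitro Lta was at 4.84, 5.08 and 4.63 CPM in NFKBIE-ko cultures. It was at 1.37, 1.31 and 0.449 CPM in NFKBIE-wt cultures, the lowest being the library labelled replicate 3. The 2.22 difference on the log2 scale (SE 0.45) was not called (edgeR adjusted p = 0.412), and neither was that of 1.86 without the library labelled replicate 3 (edgeR adjusted p = 0.0925).

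Ltb, the gene of lymphotoxin β, was measured at 170, 169, 167 and 167 CPM in NFKBIE-ko PC samples and at 46.1, 57.9, 57.5 and 63.5 CPM in NFKBIE-wt PC samples. The 4 NFKBIE-ko PC samples agreed within 1.26 CPM (SD) and lay far above the others. Groups without overlap and NFKBIE-ko higher were also seen for 22.1% of genes in the PC. The log2 fold change was 1.57 with the smallest error of the 5 members in the PC (SE 0.09, edgeR adjusted p = 8.46e-07). The spleens varied more, with 182.5, 121.6, 250.3 and 203.1 CPM in NFKBIE-ko and 52.3, 81.4, 68.1 and 110 CPM in NFKBIE-wt samples, the last being the library labelled replicate 4. No NFKBIE-wt spleen reached the lowest NFKBIE-ko spleen, which 8.09% of genes also showed. The log2 fold change was 1.28 (SE 0.27, edgeR adjusted p = 0.0307). It was 1.50 without the library labelled replicate 4 (edgeR adjusted p = 0.00657). The call was lost on leaving out NFKBIE-wt spleen replicate 1 (edgeR adjusted p = 0.0712), 2 (0.0605) or 3 (0.0904), or NFKBIE-ko spleen replicate 1 (0.0864), 3 (0.0918) or 4 (0.0884), with fold changes between 1.12 and 1.31. NFKBIE-ko cultures held 432, 427 and 444 CPM, more than any other library of the series. NFKBIE-wt cultures were spread over 150.1, 239 and 58.8 CPM, the lowest being the library labelled replicate 3. The difference was 1.54 (SE 0.46, edgeR adjusted p = 0.506), and 1.17 without that library (edgeR adjusted p = 0.203).

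Tnfrsf1a, the gene of TNF receptor 1, was measured at 39.6, 50.9, 50.1 and 42.1 CPM in NFKBIE-ko PC samples and at 25.4, 11.9, 16.0 and 25.5 CPM in NFKBIE-wt PC samples. The groups did not overlap, which 22.1% of genes also showed, and the log2 fold change was 1.20 (SE 0.24, edgeR adjusted p = 0.0038). The call was lost in the fit of all 22 samples (1.21, edgeR adjusted p = 0.223). In the spleen the NFKBIE-ko samples had 6.43, 3.39, 5.75 and 4.03 CPM. The NFKBIE-wt spleens had 3.70, 4.61, 1.91 and 0.0387 CPM, the last being 1 count in the library labelled replicate 4. The genotypes overlapped, and the test made no call with all libraries (0.93, SE 0.82, edgeR adjusted p = 0.535) or without that library (0.53, SE 0.35, edgeR adjusted p = 0.375). The NFKBIE-ko cultures held 5, 5 and 7 counts of Tnfrsf1a, and the NFKBIE-wt cultures 7, 2 and 103 counts, the last in the library labelled replicate 3. The gene was therefore near the limit of detection in 5 of the 6 cultures and below the filter for the test in vitro.

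Tnfrsf1b, the gene of TNF receptor 2, was measured at 114, 107, 120.4 and 109 CPM in NFKBIE-ko PC samples and at 78.7, 59.1, 70.3 and 79.6 CPM in NFKBIE-wt PC samples. The ranges were apart, which 22.1% of genes also showed, with a log2 fold change of 0.64 (SE 0.10, edgeR adjusted p = 0.000573). In the spleen 59.4, 44.5, 55.4 and 53.8 CPM in NFKBIE-ko samples stood beside 50.1, 43.8, 53.1 and 39.9 CPM in NFKBIE-wt samples. These overlapped, and the log2 fold change was 0.19 with a 95% interval from -0.08 to 0.45 (edgeR adjusted p = 0.443). It was 0.12 without the library labelled replicate 4 (edgeR adjusted p = 0.612). In vitro the NFKBIE-ko cultures had 50.3, 50.6 and 46.7 CPM and the NFKBIE-wt cultures 43.6, 43.7 and 37.9 CPM. All 3 NFKBIE-ko cultures were higher, which 9.9% of genes also showed. The log2 fold change was only 0.23 (95% interval 0.06 to 0.41, edgeR adjusted p = 0.517), and 0.18 without the library labelled replicate 3 (edgeR adjusted p = 0.49).

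Whether the genotype effect itself differed between compartments was tested in 1 fit of all 22 samples. None of the 5 members was called in any of the 3 contrasts, against 4.92% of 13537 genes for spleen against PC, 4.8% for PC against in vitro and 0.443% for spleen against in vitro. An unadjusted p below 0.05 was found for Lta and Tnfrsf1b in the first, for Lta, Tnfrsf1a and Tnfrsf1b in the second and for Tnfrsf1a in the last contrast, against 20.4%, 19.9% and 15.9% of genes. The effect on Lta was smaller in the spleen than in the PC by 1.69 on the log2 scale (SE 0.67, edgeR adjusted p = 0.149). For Tnfrsf1b it was smaller by 0.46 (SE 0.15, edgeR adjusted p = 0.0885). Without both doubted libraries the Tnfrsf1b contrast was called (-0.50, edgeR adjusted p = 0.0414, against 8.25% of 13758 genes). The effect on Lta then also differed between PC and in vitro (1.92, edgeR adjusted p = 0.0398, against 6.12% of genes). Without NFKBIE-wt in vitro replicate 2, the effect on Tnfrsf1a differed between PC and culture (4.42, edgeR adjusted p = 0.0321). With all libraries this Tnfrsf1a contrast was 3.86 (edgeR adjusted p = 0.099), and that between spleen and culture 3.58 (edgeR adjusted p = 0.194). Without both doubted libraries they were only 0.88 (edgeR adjusted p = 0.664) and 0.21 (edgeR adjusted p = 0.982). For Ltb the difference between spleen and PC was -0.30 with a 95% interval from -1.11 to 0.51, so that fold changes of similar size were measured but were not shown to be equal.

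The next question was how each gene differed between the compartments within a genotype, again in the fit of all samples. Both receptor genes were lower in the spleen than in the PC in both genotypes, against 15.8% of genes called lower in NFKBIE-wt and 25% in NFKBIE-ko samples. Tnfrsf1a differed by -3.22 on the log2 scale in NFKBIE-ko (SE 0.75, edgeR adjusted p = 0.00149) and by -2.94 in NFKBIE-wt samples (SE 0.76, edgeR adjusted p = 0.00548). Tnfrsf1b differed by -1.08 in NFKBIE-ko (SE 0.11, edgeR adjusted p = 1.96e-07) and by -0.62 in NFKBIE-wt samples (SE 0.11, edgeR adjusted p = 0.000203). Of the ligand genes, Lta was lower in the NFKBIE-ko spleen than in the NFKBIE-ko PC (-1.17, SE 0.44, edgeR adjusted p = 0.0323). That call was lost without NFKBIE-ko PC replicate 2 (edgeR adjusted p = 0.078), NFKBIE-ko spleen replicate 1 (0.0621) or NFKBIE-ko spleen replicate 4 (0.0977). Tnf and Ltb did not pass the test between spleen and PC in either genotype.

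Between cultures and the cells recovered from mice, calls for Lta and Ltb had the culture higher and calls for the receptors had it lower. Ltb was lower in the PC than in vitro, by -1.37 in NFKBIE-ko (SE 0.31, edgeR adjusted p = 0.00148, against 23.9% of genes called lower) and by -1.41 in NFKBIE-wt samples (SE 0.32, edgeR adjusted p = 0.00242, against 19.7%). It was also lower in the NFKBIE-ko spleen than in NFKBIE-ko cultures (-1.20, SE 0.31, edgeR adjusted p = 0.00853, against 13.4%). Lta was lower in NFKBIE-wt PC than in NFKBIE-wt cultures (-1.66, SE 0.51, edgeR adjusted p = 0.0183). This was lost without NFKBIE-wt in vitro replicate 1 (edgeR adjusted p = 0.0757) or 2 (0.0651) or NFKBIE-wt PC replicate 2 (0.0528). In NFKBIE-ko cells Lta did not differ detectably between PC and culture (-0.08, 95% interval -0.99 to 0.82, edgeR adjusted p = 0.897). Against the NFKBIE-ko spleen the culture was higher in Lta only at the edge of the threshold (-1.25, SE 0.46, edgeR adjusted p = 0.0485). That call was lost without NFKBIE-ko in vitro replicate 1 (edgeR adjusted p = 0.105), 2 (0.115) or 3 (0.0937) and without NFKBIE-ko spleen replicate 1 (0.0912), 3 (0.076) or 4 (0.123). Fitted with NFKBIE-wt PC and culture alone, neither Lta (edgeR adjusted p = 0.0874) nor Ltb (edgeR adjusted p = 0.0508) was called between them. Tnf did not follow Lta and Ltb. Its differences, PC minus culture, were 0.47 in NFKBIE-ko (SE 0.44, edgeR adjusted p = 0.399) and 1.03 in NFKBIE-wt cells (SE 0.46, edgeR adjusted p = 0.0924), and spleen minus culture 0.67 (edgeR adjusted p = 0.262) and 0.42 (edgeR adjusted p = 0.819). Without NFKBIE-wt PC replicate 3 the difference between NFKBIE-wt PC and culture was called (1.27, edgeR adjusted p = 0.0422).

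The receptor genes were higher in cells from mice wherever they were called against cultures. Tnfrsf1a was higher in the PC than in vitro by 7.66 on the log2 scale in NFKBIE-ko (SE 1.14, edgeR adjusted p = 2.92e-05) and by 3.80 in NFKBIE-wt samples (SE 0.90, edgeR adjusted p = 0.00357). The latter was 6.81 without both doubted libraries (edgeR adjusted p = 6.87e-08). It was higher in the NFKBIE-ko spleen than in NFKBIE-ko cultures by 4.44 (SE 1.07, edgeR adjusted p = 0.00564, against 16.9% called higher). Tnfrsf1b was higher in the PC than in vitro by 1.20 in NFKBIE-ko (SE 0.12, edgeR adjusted p = 3.22e-07, against 24.1% of genes) and by 0.79 in NFKBIE-wt samples (SE 0.12, edgeR adjusted p = 7.01e-05, against 14.4%). The test did not tell the NFKBIE-wt spleen and culture apart with all libraries. By edgeR 0 of 13537 genes were called there, and 7.82% had an unadjusted p below 0.05, Lta (-1.13) and Ltb (-0.94) among them. Without both doubted libraries, Lta (-2.08, edgeR adjusted p = 0.00254) and Ltb (-1.50, edgeR adjusted p = 0.000144) were lower in that spleen, against 11.5% of 13758 genes. Tnfrsf1a (4.26, edgeR adjusted p = 4.5e-05) was then higher, against 14.7%.

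By mean CPM, Tnfrsf1a therefore ran from NFKBIE-ko PC (45.7 ± 5.67, SD, n = 4) over NFKBIE-wt PC (19.7 ± 6.87, SD, n = 4), NFKBIE-ko spleen (4.90 ± 1.43, SD, n = 4), NFKBIE-wt spleen (2.56 ± 2.02, SD, n = 4) and NFKBIE-wt in vitro (1.41 ± 2.13, SD, n = 3) to NFKBIE-ko in vitro (0.223 ± 0.0572, SD, n = 3). Of these neighbours, the spleens of both genotypes did not differ beyond their spread, nor did the NFKBIE-wt spleen and culture with all libraries. The place of the NFKBIE-wt cultures rests on the library labelled replicate 3. Without both doubted libraries their mean was 0.179 ± 0.145 (SD, n = 2), below that of the NFKBIE-ko cultures, and that of the NFKBIE-wt spleens was 3.41 ± 1.37 (SD, n = 3), which then differed from the cultures as given above. Ltb ran from NFKBIE-ko in vitro (434 ± 8.58, SD, n = 3) over NFKBIE-ko spleen (189 ± 53.4, SD, n = 4), NFKBIE-ko PC (168 ± 1.26, SD, n = 4), NFKBIE-wt in vitro (149 ± 90.0, SD, n = 3) and NFKBIE-wt spleen (77.9 ± 24.4, SD, n = 4) to NFKBIE-wt PC (56.3 ± 7.28, SD, n = 4). Here the NFKBIE-ko spleen and PC, and the NFKBIE-wt spleen and PC, overlapped within their spread. The NFKBIE-wt cultures, from 58.8 to 239 CPM, spanned the means of these 4 groups. Their place again rests on the library labelled replicate 3. Without both doubted libraries their mean was 194 ± 62.8 (SD, n = 2), above the means of the NFKBIE-ko spleen and PC. That of the NFKBIE-wt spleens was then 67.2 ± 14.6 (SD, n = 3). Tnf had all 3 NFKBIE-ko groups on top, with means of 9.70 ± 2.73 (SD, n = 4) for spleens, 8.45 ± 4.36 (SD, n = 4) for PC samples and 6.11 ± 0.939 (SD, n = 3) for cultures. No contrast between these groups was called. All 4 NFKBIE-ko spleens were above all NFKBIE-ko cultures, narrowly (lowest spleen 6.73, highest culture 6.70 CPM), as 25.4% of genes also were.

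Samples from mice were not purified, so that transcripts of host cells are part of each value, and in such bulk samples fewer cells of a type and less RNA per cell cannot be told apart. The summed level of 12 macrophage and monocyte markers lay between 3907 and 5781 CPM in NFKBIE-ko PC and between 587 and 1821 CPM in NFKBIE-wt PC samples. In the PC 10 of the 12 markers were called higher in NFKBIE-ko samples, against 22.5% of all genes. Of the other lists, 7 of 10 T-cell markers and 6 of 8 cytotoxic and NK-cell markers were called higher there, and 1 marker of each of these lists lower. Of the granulocyte markers tested 5 of 7, and of the stromal and endothelial markers tested 3 of 3, were called lower, against 20.9% of all genes called lower. In the spleen the macrophage and monocyte sum was 99.2 to 379 CPM in NFKBIE-ko and 28.9 to 88.1 CPM in NFKBIE-wt samples. Called higher there were 1 of 11 macrophage and monocyte, 1 of 10 T-cell and 3 of 7 cytotoxic and NK-cell markers tested, against 2.3% of all genes. Without the library labelled replicate 4 these were 4 of 12, 5 of 10 and 4 of 7, against 5.48% of all genes. None of these markers was called lower. The sum of 10 T-cell markers was 132 to 220.5 CPM in NFKBIE-ko and 40.3 to 162 CPM in NFKBIE-wt spleens, and that of 8 cytotoxic and NK-cell markers 54.0 to 128.5 and 3.09 to 15.9 CPM. Much of the T-cell sum was Cd2, with means of 87.6 and 69.1 CPM, and Trac, with 23.5 and 26.8 CPM. The median log2 fold change of the 10 T-cell markers was 1.72, against -0.01 over all genes. For 6 of them every NFKBIE-ko spleen was above every NFKBIE-wt spleen, against 8.09% of genes. Without the library labelled replicate 4, the lowest NFKBIE-wt spleen was at 67.6 CPM for the macrophage and monocyte, 102 CPM for the T-cell and 12.99 CPM for the cytotoxic sum. The sum of 7 markers of the leukemic B cell was lower in NFKBIE-ko spleens (6606 to 7849 CPM) than in NFKBIE-wt spleens (9402 to 10140 CPM). The part of these cells in the differences of Tnf, Lta, Ltb and the receptors in the spleen and PC was not tested.

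**Figure D3:**
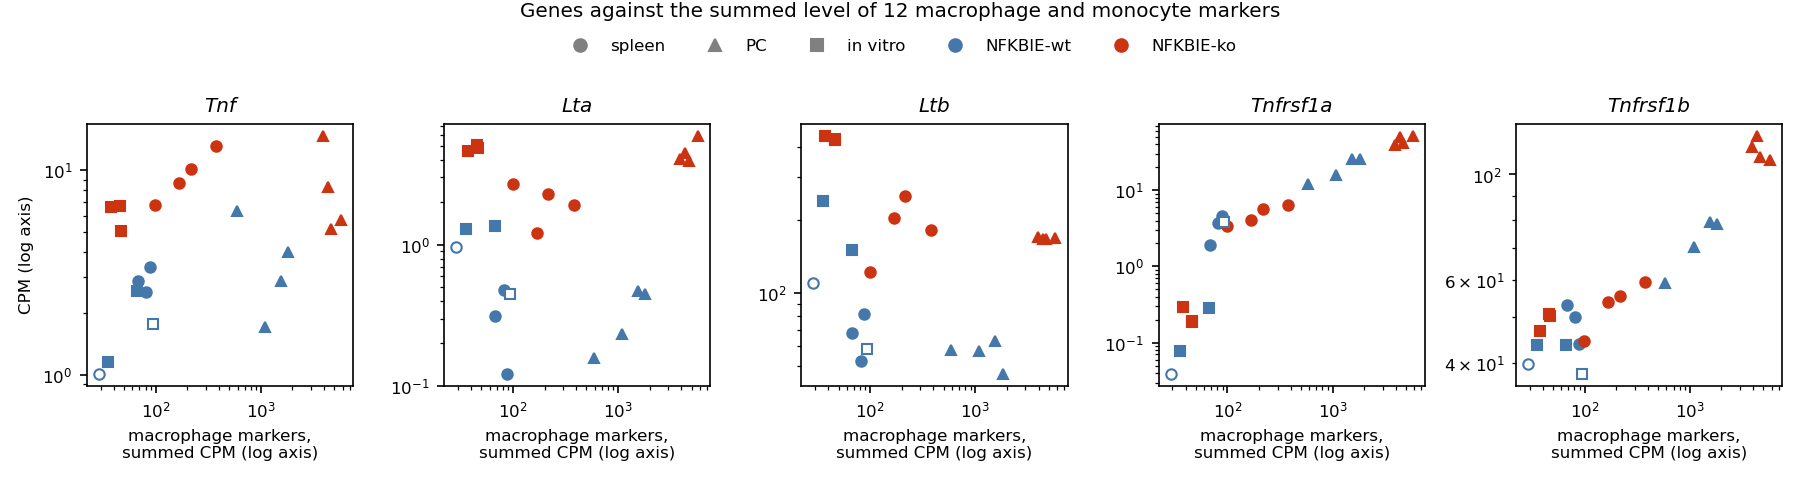
Level of each gene (CPM, log axis) against the summed CPM of 12 macrophage and monocyte markers (log axis) in the 22 libraries. Blue is NFKBIE-wt, red is NFKBIE-ko, and open symbols are the spleen library labelled NFKBIE-wt replicate 4 and the culture labelled NFKBIE-wt replicate 3. Tnfrsf1a is highest where the marker sum is highest (NFKBIE-ko PC, 3907 to 5781 CPM), whereas Ltb is highest in NFKBIE-ko cultures with sums of 37.5 to 46.5 CPM.

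In NFKBIE-ko cultures, which held the highest levels of Ltb, the macrophage and monocyte sum was 37.5 to 46.5 CPM and Fcgr1, C1qa, C1qc, Marco and Timd4 were at 0 in all 3 libraries. Trbc2, Cd8a, Cd8b1 and Cd28 of the T-cell list, Gzma and Klrk1 of the cytotoxic list and 6 of the 9 granulocyte markers were also at 0 there. In NFKBIE-wt cultures the macrophage and monocyte sum was 35.5 to 93.5 CPM, or 35.5 to 66.8 CPM without the library labelled replicate 3. The sum of 5 dendritic-cell markers was higher in NFKBIE-ko cultures, at 16.4 to 18.0 CPM against 5.47 to 10.7 CPM, and none of the 4 tested was called by edgeR or had an unadjusted p below 0.05. The T-cell sum was 55.4 to 71.2 CPM in NFKBIE-ko and 55.5 to 168 CPM in NFKBIE-wt cultures (55.5 to 82.5 CPM without the library labelled replicate 3). The cytotoxic sum was 2.73 to 3.83 and 1.96 to 16.8 CPM, and the leukemic B-cell sum 7756 to 8170 and 9160 to 11920 CPM. The part of these cells in the values of the ligand genes in vitro was not tested. Tnfrsf1a, untested in vitro, was at or below 0.289 CPM in the NFKBIE-ko cultures and in the NFKBIE-wt cultures other than the library labelled replicate 3.

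The genes whose log2 CPM over the 22 samples was most like that of each member are given as a description, since the samples share groups and libraries. For Tnfrsf1a they were Pygl, Tlr13 and Alox5ap (Pearson r = 0.992, 0.991 and 0.99). For Tnfrsf1b they were Snx24, Psap and Lamp1 (0.972, 0.967 and 0.962), and for Ltb Cdcp1, H2-Eb1 and Snrnp25 (0.96, 0.943 and 0.942). Those most like Lta were Tpm4, Lrp4 and Art2b (0.941, 0.92 and 0.915). The likeness was lowest for Tnf, with Tmed6, Sim1 and Hgfac (0.877, 0.872 and 0.831). Among the members, Lta and Ltb were most alike (r = 0.832).

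The genes that flank the ligand cluster within about 70 kb show whether the difference reached beyond it. Of 7 neighbours in the table, Lst1 and Aif1, both known as genes of myeloid cells, were called higher in NFKBIE-ko PC samples and the other 5 (Prrc2a, Nfkbil1, Atp6v1g2, Ddx39b and Bag6) were not called. That is 2 of 7, against 22.5% of all genes, a share near the background. Lst1 rose from 2.83 to 9.68 CPM (log2 fold change 1.76, edgeR adjusted p = 3.37e-05) and Aif1 from 2.66 to 10.4 CPM (1.95, edgeR adjusted p = 0.00154) in the PC. In the spleen Lst1 was the 1 neighbour called (1.56, edgeR adjusted p = 0.0462), against 2.3% of all genes called higher. Without the library labelled replicate 4 it was joined by Aif1 (2.07, edgeR adjusted p = 0.018), against 5.48% of all genes. In vitro none of the 7 was called by edgeR and 2 had an unadjusted p below 0.05, against 9.59% of all genes. Lst1 had a log2 fold change of 1.90 there (SE 0.69, edgeR adjusted p = 0.517). The neighbours next to Lst1 and Aif1 on one side and to Lta on the other, Prrc2a and Nfkbil1, had log2 fold changes from -0.10 to 0.33 in the 3 compartments. In the PC and spleen the macrophage sums given above were also higher in NFKBIE-ko samples. The part of these cells in the change of Lst1 and Aif1 was not tested.

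**Figure D4:**
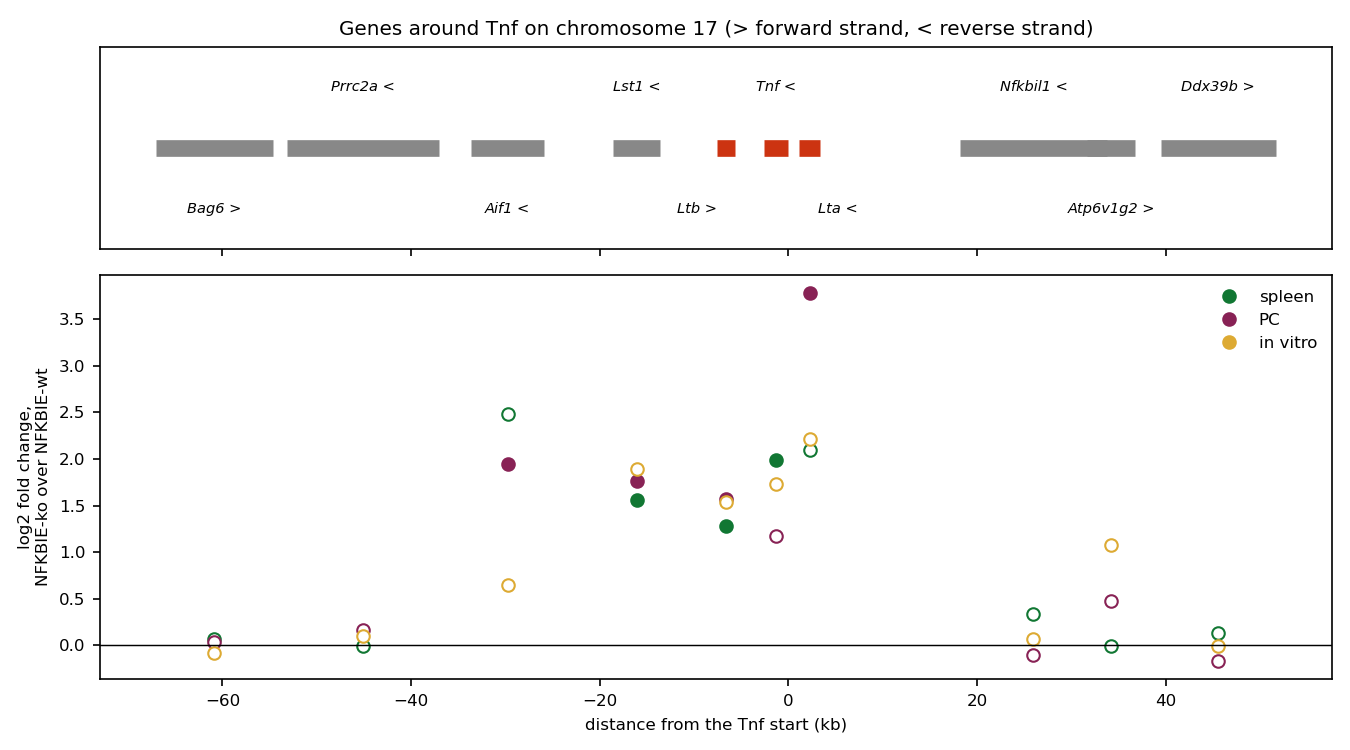
Top, position of the genes around Tnf by distance from its start in kb, with the 3 members in red. Bottom, their log2 fold change of NFKBIE-ko over NFKBIE-wt in each compartment, where filled points had an adjusted p below 0.05. Ltb, Tnf, Lta, Lst1 and, in spleen and PC, Aif1 lie above 1, and Bag6, Prrc2a, Nfkbil1 and Ddx39b lie between -0.17 and 0.33. Atp6v1g2, beyond Nfkbil1, lies at 1.08 in vitro, 0.47 in the PC and about 0 in the spleen, none of them called.

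Other parts of the pathway were described by lists of genes. Among 7 further ligands, receptors and proteins of their processing, 5 of the 6 tested rose in NFKBIE-ko PC samples, against 22.5% of all genes. None was called by edgeR in the spleen (2 with an unadjusted p below 0.05, against 23% of all genes) or in vitro (0 of 5 tested). The list had a median log2 fold change of 0.58 in the PC, against -0.01 over all genes. Ltbr, the receptor for the membrane form of lymphotoxin, rose from 8.19 to 17.3 CPM (1.07, edgeR adjusted p = 0.0131), a gene named after its values were seen. Adam17, the protease that sheds TNF and its receptors, rose from 77.6 to 108 CPM (0.47, edgeR adjusted p = 0.000509). Tnfrsf14, a receptor that also binds lymphotoxin α, rose from 7.23 to 12.3 CPM (0.75, edgeR adjusted p = 0.0017). Sppl2a, an intramembrane protease, rose by 0.41 (edgeR adjusted p = 0.000621) and Rhbdf2, which Adam17 needs for its transport, by 0.69 (edgeR adjusted p = 0.00248).

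Of 24 genes of the receptor complex and of the signal to NF-κB, 6 rose and 5 fell in the PC, with a median of 0.01. These counts are near the shares over all genes, 22.5% higher and 20.9% lower, so the genes named are a description of single genes and not of the list. Map3k14, the kinase NIK of the noncanonical pathway, fell from 93.0 to 52.1 CPM (-0.85, edgeR adjusted p = 6.58e-06). The adaptors Traf5 (0.83, edgeR adjusted p = 7.1e-05) and Traf1 (0.80, edgeR adjusted p = 8.37e-05) and the inhibitor Tnip1 (0.35, edgeR adjusted p = 0.00138) rose. Traf5 was also the 1 gene of this list called in the spleen, against 2.3% of all genes called higher. It rose there from 12.7 to 26.7 CPM (1.07, edgeR adjusted p = 0.00218). Without the library labelled replicate 4, Traf1 (0.74, edgeR adjusted p = 0.00578) and Tnfaip3, the gene of the inhibitor A20 (0.77, edgeR adjusted p = 0.0148), were called there as well, against 5.48% of all genes. None of the 24 was called by edgeR in vitro, and 2 had an unadjusted p below 0.05, against 9.59% of all genes. In the death branch, 3 of 5 genes rose in the PC, against 22.5% of all genes, and none was called or had an unadjusted p below 0.05 by edgeR in the spleen or in vitro. They were the protease gene Casp8 (0.55, edgeR adjusted p = 0.000116), its inhibitor Cflar (0.57, edgeR adjusted p = 0.000601) and the necroptosis kinase gene Ripk3 (1.25, edgeR adjusted p = 0.0215). Of 10 proteins that bind TNF mRNA, Zfp36l2 (-0.78, edgeR adjusted p = 0.000419) and Tia1 (-0.28, edgeR adjusted p = 0.035) fell in the PC and none was called by edgeR in the spleen or in vitro, where 3 and 1 had an unadjusted p below 0.05. The count in the PC is near the 20.9% of all genes called lower. An unadjusted p below 0.05 was found for 23% of all genes in the spleen and 9.59% in vitro.

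**Figure D5:**
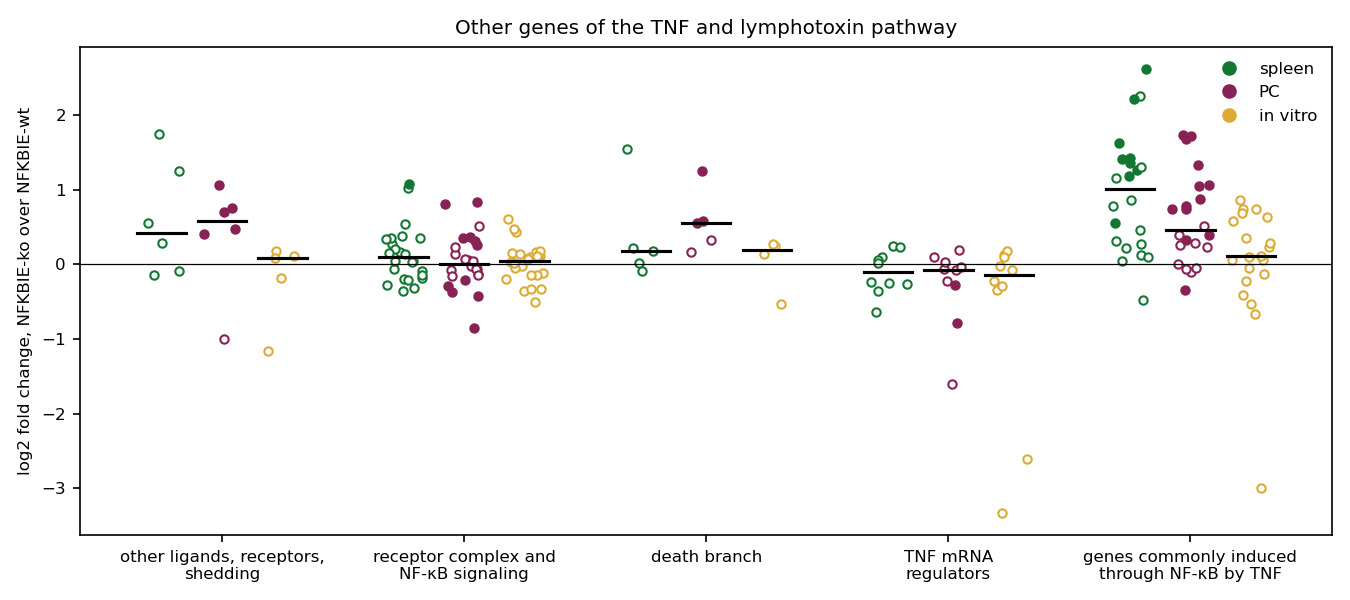
Log2 fold change of NFKBIE-ko over NFKBIE-wt for the genes of 5 lists of the TNF and lymphotoxin pathway in each compartment, all libraries. Each point is 1 gene, filled where its adjusted p was below 0.05, and black lines are medians. Among the genes commonly induced through NF-κB by TNF the median is 1.01 for spleens, 0.46 for PC samples and 0.11 for cultures.

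Of 22 genes that TNF commonly induces through NF-κB, 9 rose and none fell in the spleen, against 2.3% of all genes called higher, with a median log2 fold change of 1.01 against -0.01 over all genes. Without the library labelled replicate 4, 13 rose, against 5.48% of all genes. The list holds Ccl3, Ccl4, Ccl22, Cxcl10, Csf1 and Cd274, which the authors had already named as higher in NFKBIE-ko spleens of this series. The counts and the median for the spleen are therefore a description of the list only. The interferon regulatory factor Irf1 rose from 73.7 to 196 CPM (1.41, edgeR adjusted p = 0.00218), and the chemokine gene Ccl4 from 0.609 to 3.74 CPM (2.61, edgeR adjusted p = 0.028). Csf1, the macrophage growth factor, rose by 1.18 (edgeR adjusted p = 0.0198) and Cd274, the gene of PD-L1, by 1.26 (edgeR adjusted p = 0.024). In the PC 12 rose, against 22.5% of all genes, and 1 fell, against 20.9%, Nfkbia, the gene of the inhibitor IκBα (-0.34, edgeR adjusted p = 0.0471, named after its values were seen). Ebi3, a subunit of interleukin 27 and 35, rose from 3.54 to 11.8 CPM (1.73, edgeR adjusted p = 4.67e-06) and the NF-κB subunit gene Nfkb2 from 118 to 216 CPM (0.87, edgeR adjusted p = 3.38e-05). Tnfaip8 (0.74, edgeR adjusted p = 1.86e-05) and the adhesion molecule gene Icam1 (0.78, edgeR adjusted p = 5.16e-05) rose as well. In vitro none of the 20 tested was called by edgeR, and 1 had an unadjusted p below 0.05, against 9.59% of all genes. The median was 0.11, against -0.02 over all genes. In both mouse compartments the macrophage and monocyte marker sum was also higher in all NFKBIE-ko than in all NFKBIE-wt samples. The cytotoxic sum was so in the spleen, and in the PC its ranges overlapped (46.1 to 83.5 and 19.8 to 49.0 CPM). The part of these cells in the values of the list was not tested.

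The gene sums rested on few transcripts. Tnf and Lta had 1 transcript each in the table, and the annotated main transcript held 98.0% of the counts of Ltb (3 transcripts), 98.9% of Tnfrsf1a and 99.9% of Tnfrsf1b (2 transcripts each). Tested per transcript in the PC, the main transcripts of Lta (3.83, edgeR adjusted p = 0.000977), Ltb (1.61, 0.000118), Tnfrsf1a (1.25, 0.017) and Tnfrsf1b (0.69, 0.00503) were called. A retained-intron transcript of Ltb also rose there, from 0.595 to 2.41 CPM (2.06, edgeR adjusted p = 0.0266). In the spleen the transcripts of Tnf (2.03, edgeR adjusted p = 0.102) and Ltb (1.34, edgeR adjusted p = 0.133) were not called among the 33308 tested.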

How the data were processed

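RNA-seq of 22 samples was analysed. The authors estimated transcript abundance with Salmon 1.8 on GRCm39 and deposited estimated counts (expected counts) per transcript, not normalized, in a table that lists only transcripts above 0 in at least 5 samples. The submitters' processing notes also name CASAVA and DESeq2. Of 62492 transcripts, 62147 matched GENCODE of the same build; the rest held 0.619% of the counts. Counts were summed per gene and rounded.

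The genotypes were compared per compartment with edgeR 4.0.16 (filterByExpr, TMM, robust quasi-likelihood test, Benjamini-Hochberg adjustment over all genes tested), and compartments and differences of effects in 1 fit of all 22 samples, in R 4.3.3. A call is an adjusted p below 0.05. SE is the log2 fold change divided by the root of F. CPM are TMM-scaled over all samples, and TPM use annotated exonic length. The step was tested on simulated counts. Replicates differed by more than sampling noise (chi-square per degree of freedom at least 6.85 in 30 pairs), and p-values measure the spread between samples. Sequences come from the GRCm39 reference.

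The members, lists, rule for named genes and alternatives were chosen with earlier results of these data known. Named were the members, Nfkbie, the 3 genes most correlated with each member, and per list and compartment at most 4 called genes with the smallest adjusted p. Propagation in 1 mouse per genotype and the genotype cannot be told apart. Alternatives were RLE size factors, no filter or a stricter one, DESeq2, other sample sets, the replicate block, the transcript with the highest mean and each library left out. Figures used Python with matplotlib.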

Additional observations from a re-analysis of the deposited data

How the results depend on the processing

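The genotype effects on Lta, Ltb and Tnfrsf1b in the PC kept their call under every alternative run. Other calls moved. With DESeq2 the effects on Lta in the spleen (2.10), Tnf in the PC (1.18) and Tnf (1.74), Lta (2.23) and Ltb (1.54) in vitro passed the threshold, and 1637 genes were called in the spleen and 230 in vitro. With edgeR on all 22 samples the effects on Lta in the spleen (2.10), Tnf in the PC (1.18), Lta (2.22) and Ltb (1.54) in vitro passed, Tnfrsf1a in the PC did not (1.21), and the genes called numbered 2120 for spleens, 3194 for PC samples and 276 for cultures. For the transcript with the highest mean, Tnf (2.03) and Ltb (1.34) in the spleen lost the call, and 118 transcripts were called in the spleen and 0 in vitro by edgeR (1774 at an unadjusted p below 0.05). Without a filter 24 genes differed in their genotype effect between spleen and culture, and with only the groups compared 2688 differed between NFKBIE-wt PC and culture. The cause of these moves was not tested.

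With the replicate number as a block, Tnf (2.06) and Ltb (1.28) in the spleen lost the call, 90 genes were called in the spleen and 0 in vitro by edgeR (873 at an unadjusted p below 0.05), and the genotype effect differed for 393 genes between spleen and PC, 1 between spleen and culture and 81 between PC and culture. Lta then changed sign, uncalled, in the effect between spleen and culture (0.49) and between NFKBIE-ko PC and culture (0.043). The numbers share no known source: correlations of same-numbered residuals lay between -0.26 and 0.14, and no pairing was assumed.

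Without both doubted libraries, 3607 genes differed between NFKBIE-wt spleen and culture, and the genotype effect differed for 1135 genes between spleen and PC and 129 between spleen and culture. Lta changed sign, uncalled, between NFKBIE-wt spleen and PC (-0.11), and Lta (0.87) and Ltb (0.34) did so in the effect between spleen and culture.

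Leaving out each library in turn, genotype effects ranged in the spleen from 1.73 to 2.18 for Tnf, 1.79 to 2.72 for Lta and 1.12 to 1.50 for Ltb, in the PC from 0.76 to 1.54 for Tnf, and in vitro from 1.50 to 2.05 for Tnf. Genes called ranged from 133 to 1517 in the spleen and from 0 to 785 in vitro, from 0 to 769 between NFKBIE-wt and from 2550 to 4345 between NFKBIE-ko spleen and culture. For differences of the effect they ranged from 343 to 1069 (spleen and PC), from 5 to 696 (spleen and culture) and from 53 to 1156 (PC and culture). Values that crossed 0, none of them called, were the differences between NFKBIE-ko PC and culture for Lta (-0.20 to 0.016), between NFKBIE-wt spleen and PC for Lta (-0.092 to 0.83) and between NFKBIE-ko spleen and PC for Ltb (-0.027 to 0.33) and Tnf (-0.019 to 0.60). So did the differences of the effect between spleen and culture for Lta (-0.44 to 0.50), Ltb (-0.77 to 0.12), Tnf (-0.077 to 0.49) and Tnfrsf1b (-0.12 to 0.029), between PC and culture for Ltb (-0.47 to 0.42) and between spleen and PC for Tnfrsf1a (-0.69 to 0.15).

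Depth limits Lta in NFKBIE-wt samples (3 to 34 counts per library) and Tnfrsf1a in cultures, and 3 or 4 samples per group limit the precision of every fold change.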
